A study of Mus musculus with 37 samples.

Results

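The D cyclins Ccnd1, Ccnd2 and Ccnd3 and 7 genes that restrain the cell cycle, namely Cdkn1a, Cdkn1b, Cdkn1c, Cdkn2a, Cdkn2b, Cdkn2c and Btg2, were followed through every medium and time in cultured cardiac fibroblasts (CFs), through every medium in neonatal rat ventricular myocytes (NRVMs) and through the cell classes of a pair of single-cell libraries. They were picked by name, with no threshold on their values, and are 10 of the 30892 genes counted in CFs, 10 of 20158 in NRVMs and 10 of 31053 in single cells. All 10 passed the filter on low counts in both cultures. On the mouse genome (GRCm38, GENCODE M21) the D cyclins lie at chr7:144929931-144939925, chr6:127125162-127152193 and chr17:47505051-47599691, the CIP/KIP genes Cdkn1a, Cdkn1b and Cdkn1c at chr17:29090976-29100727, chr6:134920401-134925513 and chr7:143458339-143461050, the INK4 genes Cdkn2a, Cdkn2b and Cdkn2c at chr4:89274471-89294653, chr4:89306299-89311039 and chr4:109660876-109667189, and Btg2 at chr1:134075170-134079120.

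ENPP1 is an ectonucleotidase that splits extracellular ATP and leaves AMP, and the study asked how myocytes exposed to these nucleotides act on the other cells of an injured heart. NRVMs received vehicle, recombinant ENPP1, ATP, ENPP1 together with ATP, or AMP, and their serum-free medium, named after what the myocytes had received (Vehicle, ENPP1, ATP, ENPP1+ATP, AMP), was moved onto CFs for 24 h or 48 h, with 2 libraries for each medium and time, or onto other NRVMs for 24 h, with 3 libraries for each medium. Nonmyocytes of injured hearts 7 days after myocardial infarction gave 1 library from ENPP1CKO mice and 1 from control mice. The CFs were wild-type C57BL/6 mouse cells immortalized with the SV40 antigen, whose large T protein is known to bind RB and p53, and the NRVMs were wild-type Sprague-Dawley rat cells. The ENPP1CKO mice (C57BL/6) carried floxed alleles (ENPP1 fl/fl) and a tamoxifen-dependent Cre driven by Col1a2 (Col1a2CreERT), which aims the deletion at collagen-producing cells, and the control mice (C57BL/6) are labelled wild type. The age of the animals and the number of hearts in a library are not given in the sources used here. The study's methods call its replicates biological, but do not say whether the libraries of a group came from separate cultures or cell preparations, so p-values measure only the spread between these libraries.

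D cyclins bind and activate CDK4 and CDK6, which phosphorylate the retinoblastoma protein RB and free E2F factors to switch on genes of DNA replication. INK4 inhibitors, among them those encoded by Cdkn2a, Cdkn2b and Cdkn2c, block CDK4 and CDK6 themselves. The CIP/KIP inhibitors, p21 (Cdkn1a), p27 (Cdkn1b) and p57 (Cdkn1c), bind cyclin-CDK complexes more widely. Btg2 is an antiproliferative gene, and both it and Cdkn1a are known targets of p53. In the heart, fibroblasts leave quiescence after infarction, while adult myocytes seldom divide, so the balance between these genes bears on which cells fill a scar.

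Total counts per library ran from 32184799 to 115824659 in CFs (median 43133824) and from 13481389 to 16977980 in NRVMs (median 14937081), so the spread between libraries, not counting error, set the precision of most members. Levels in the cultures are given as CPM, the usual scaling of a gene's counts to a library total of fixed size, with totals adjusted by trimmed mean of M-values (TMM), and differences as log2 fold changes from edgeR's quasi-likelihood test with Benjamini-Hochberg adjustment over all genes tested (17879 in CFs, 13461 in NRVMs), with a threshold of 0.05. The marker lists bore out the labels in part. CFs had fibroblast markers at a summed 8146 to 8504 CPM in 24 h Vehicle medium and cardiomyocyte markers at 15 to 29.4 CPM in all 20 libraries. NRVMs had cardiomyocyte markers at a summed 44563 to 46894 CPM in Vehicle medium beside fibroblast markers at 25548 to 26932 CPM, so the NRVM values are those of a mixed culture. In bulk RNA, fewer cells of a type and less RNA per cell cannot be told apart.

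In CFs, medium from ENPP1+ATP-treated myocytes raised Cdkn1a, Btg2 and Ccnd1 at both times. It lowered Ccnd3, Cdkn1b, Cdkn1c and the INK4 members Cdkn2a, Cdkn2b and Cdkn2c at both times, while Ccnd2 was lower at 24 h and higher at 48 h. Against Vehicle medium, 3 members were higher and 7 lower at 24 h, where 49.1% [23.9% higher, 25.3% lower] of all genes tested passed the threshold, and 4 were higher and 6 lower at 48 h, where 45.2% [20.8% higher, 24.4% lower] passed. The libraries of the 2 groups did not overlap for any of the 10 members at either time, as was so for 76.2% of all genes tested at 24 h and 69.8% at 48 h, so this count says little about the members. AMP medium gave the same split (3 and 7 at 24 h beside 52.8% [25.3% higher, 27.5% lower] of all genes, 4 and 6 at 48 h beside 44% [21.1% higher, 22.9% lower]). ENPP1+ATP, AMP, ATP and ENPP1 medium were all compared with the same Vehicle libraries, so these comparisons are not independent of each other.

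**Figure D1:**
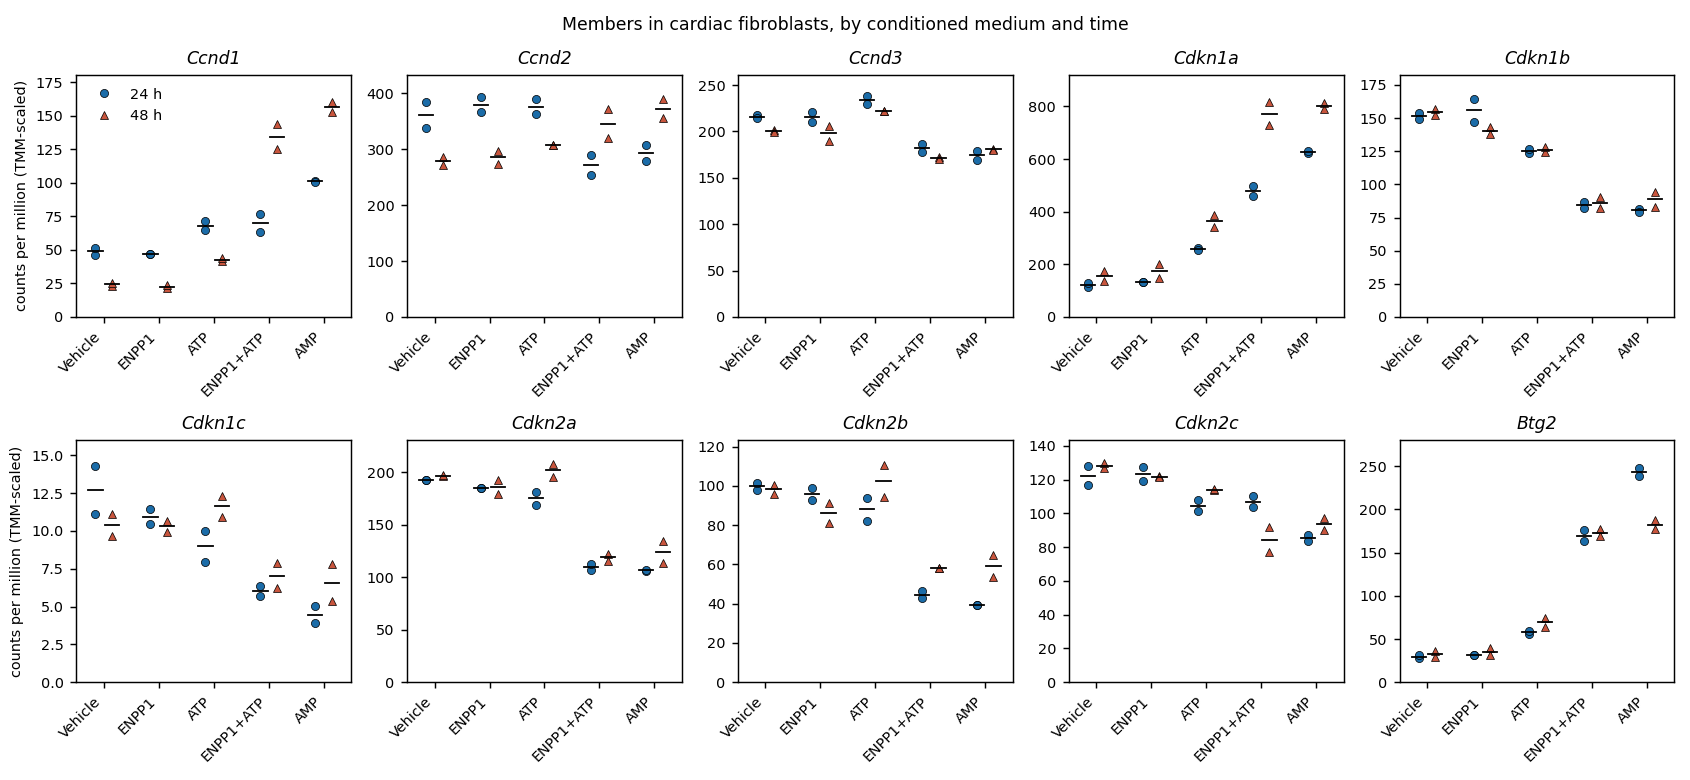
TMM-scaled CPM of the 10 members in the 20 CF libraries, by medium, with circles for 24 h, triangles for 48 h and a line at the mean of each group of 2 libraries. For Ccnd1, both 48 h Vehicle libraries sit below both 24 h Vehicle libraries (23.5 and 25.4 against 46.4 and 51.4 CPM), whereas both 48 h ENPP1+ATP libraries sit above the 24 h ones (125 and 144 against 63.7 and 76.6 CPM).

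Cdkn1a, which encodes p21, stood at 115 and 130.4 CPM in Vehicle medium at 24 h. It stood at 261 and 253 CPM in ATP medium, 461 and 498 CPM in ENPP1+ATP medium and 624 and 631 CPM in AMP medium. The groups followed each other in that order with no overlap. The log2 fold change against Vehicle was 1.97 (SE 0.143, adjusted p = 2.31e-07) for ENPP1+ATP medium, 2.36 (SE 0.144, adjusted p = 3.95e-08) for AMP medium and 1.07 (SE 0.14, adjusted p = 0.000373) for ATP medium. At 48 h the level was 138 and 176 CPM in Vehicle, 387 and 343 CPM in ATP, 731 and 816 CPM in ENPP1+ATP and 789 and 815 CPM in AMP medium. Here ENPP1+ATP and AMP overlapped each other and stood above the ATP and Vehicle libraries. The 48 h changes against Vehicle were 2.30 for ENPP1+ATP, 2.35 for AMP and 1.22 for ATP medium, the largest of their adjusted p being 0.000181. Fitted with only the libraries of its own groups, the 48 h ATP change was 1.22 with an adjusted p of 0.0741. ENPP1+ATP medium also exceeded ATP medium, by 0.90 at 24 h and 1.08 at 48 h (adjusted p = 0.000211 and 5.42e-05).

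Btg2 had the largest change of the 10 at 24 h with ENPP1+ATP and AMP medium, though not with ATP medium, where Cdkn1a changed more. Its level was 27.7 and 31.3 CPM in Vehicle, 56.0 and 59.2 CPM in ATP, 163 and 176 CPM in ENPP1+ATP and 248 and 238 CPM in AMP medium at 24 h. At 48 h it was 29.7 and 35.6 CPM, 74.7 and 63.8 CPM, 169 and 178 CPM and 177 and 188 CPM in the same order. All libraries of ENPP1+ATP and AMP medium stood above all of Vehicle and ATP medium. The change against Vehicle was 2.53 (SE 0.0989, adjusted p = 8.65e-13) at 24 h and 2.41 (SE 0.0991, adjusted p = 1.52e-12) at 48 h for ENPP1+ATP medium, and 3.05 and 2.48 for AMP medium. The AMP effect was smaller at 48 h than at 24 h, the difference being -0.57 (SE 0.135, adjusted p = 0.00351), whereas for ENPP1+ATP medium the difference between times did not pass the test (-0.12, adjusted p = 0.548).

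A promoter window of each of the 2 genes that rose most at 24 h, and of the neighbours Cdkn2a and Cdkn2b that fell, is shown for the letters near its start. Windows of 300 bases, 250 before and 50 after a start (RefSeq, GRCm38.p6), were given for 7 of the 10 members, as 11 windows. Ccnd1, Ccnd2 and Cdkn1c had none. They were searched on both strands for the p53 half-site, for E2F sites written as TTTCCCGC, TTTGGCGC or TTTCGCGC, for the TATA box TATAAA, for the CRE palindrome TGACGTCA and for the CCAAT box. These motifs do not hold one another. Each sequence runs 5′ to 3′ on the gene's strand, with p53 half-sites, E2F sites and TGACGTCA in capitals.
Cdkn1a, chr17:29090729-29091028, plus strand: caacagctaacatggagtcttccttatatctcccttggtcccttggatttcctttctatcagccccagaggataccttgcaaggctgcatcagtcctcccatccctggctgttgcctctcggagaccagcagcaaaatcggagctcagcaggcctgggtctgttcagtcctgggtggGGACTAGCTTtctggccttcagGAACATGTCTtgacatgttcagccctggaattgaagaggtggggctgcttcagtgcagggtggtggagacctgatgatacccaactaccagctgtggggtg
Btg2, chr1:134079106-134079405, minus strand: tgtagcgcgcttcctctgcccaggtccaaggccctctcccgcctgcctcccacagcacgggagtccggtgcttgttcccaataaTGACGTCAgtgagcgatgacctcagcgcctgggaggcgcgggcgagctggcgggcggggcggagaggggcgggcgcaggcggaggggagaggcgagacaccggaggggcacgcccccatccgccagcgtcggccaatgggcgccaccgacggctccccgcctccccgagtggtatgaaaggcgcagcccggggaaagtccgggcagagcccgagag
Cdkn2a, chr4:89294570-89294869, minus strand: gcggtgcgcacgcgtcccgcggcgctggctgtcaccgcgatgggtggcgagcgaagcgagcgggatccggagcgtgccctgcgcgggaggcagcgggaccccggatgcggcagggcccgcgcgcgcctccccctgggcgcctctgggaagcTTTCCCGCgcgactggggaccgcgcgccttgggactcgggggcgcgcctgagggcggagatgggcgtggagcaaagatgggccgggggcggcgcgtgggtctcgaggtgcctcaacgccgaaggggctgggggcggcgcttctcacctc
Cdkn2b, chr4:89310983-89311282, minus strand: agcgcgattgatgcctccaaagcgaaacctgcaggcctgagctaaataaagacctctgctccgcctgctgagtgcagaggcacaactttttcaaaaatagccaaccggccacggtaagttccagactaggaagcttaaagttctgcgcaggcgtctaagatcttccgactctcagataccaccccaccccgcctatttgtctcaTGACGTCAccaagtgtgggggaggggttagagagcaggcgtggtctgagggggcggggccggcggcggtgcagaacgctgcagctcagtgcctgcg
The Cdkn1a window, the upstream one of 2 given for this gene, holds 2 p53 half-sites, at 73 and 51 bases before the start, and the other window, chr17:29093519-29093818, holds none. Half-sites stand in 8.36% of the 32851 promoters of the same length, and a pair with at most 13 bases between them in 0.0731%. No half-site was found in the Btg2 window, which holds TGACGTCA 166 bases before the start, as the Cdkn2b window does 46 bases before it (1.79% of all promoters). The Cdkn2a window shown, the upstream one of 2, holds an E2F site 99 bases before the start (1.84%), and the other window, chr4:89282143-89282442, holds none. Cdkn2a encodes both p16INK4a and p19ARF, and the windows do not name their product. The E2F site is therefore not to be read as one of p16INK4a. These are exact matches of letters. A stretch that differs by a letter, such as the bases right after the second Cdkn1a half-site, was not counted. Binding at any of these stretches was not measured here.

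Ccnd1, cyclin D1, went in opposite directions over time in different media. In Vehicle medium it fell from 46.4 and 51.4 CPM at 24 h to 23.5 and 25.4 CPM at 48 h, a change of -1.0 (SE 0.0820, adjusted p = 3.88e-07). In ENPP1+ATP medium it rose from 63.7 and 76.6 CPM to 125 and 144 CPM, a change of 0.94 (SE 0.0771, adjusted p = 1.20e-09). In AMP medium it rose from 101 and 101 CPM to 153 and 160.1 CPM. The 2 times did not overlap in any of these media. ATP medium went the way of Vehicle, from 71.5 and 65.0 CPM to 41.8 and 43.7 CPM (-0.68, SE 0.0797, adjusted p = 3.77e-06), and so did ENPP1 medium, from 46.8 and 46.8 CPM to 21.7 and 23.5 CPM (-1.05, SE 0.0861, adjusted p = 4.51e-07). The effect of ENPP1+ATP medium against Vehicle was 0.53 (SE 0.0781, adjusted p = 4.77e-06) at 24 h and 2.46 (SE 0.0827, adjusted p = 6.48e-17) at 48 h, and the difference of the 2 effects was 1.93 (SE 0.113, adjusted p = 2.39e-11). For AMP medium the effects were 1.06 and 2.68, with a difference of 1.63 (SE 0.111, adjusted p = 1.79e-10). With scaling by library totals only, the median of these differences over all genes shifted from -0.01 to -0.14 for ENPP1+ATP and from 0.01 to -0.14 for AMP medium. At 24 h ENPP1+ATP medium did not differ from ATP medium by the test (0.04, adjusted p = 0.729, overlapping libraries), and at 48 h it exceeded ATP medium by 1.65 (SE 0.0795, adjusted p = 1.05e-13). Of the Ccnd1 exon bases, 23.4% lie opposite exons of another gene, Lto1 (LTO1 in the annotation). Whether counting used strand is not given in the sources used here, so reads over these shared bases may come from either gene.

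Ccnd2, cyclin D2, had a smaller change that turned with time. It stood at 339 and 384 CPM in Vehicle and 254 and 289 CPM in ENPP1+ATP medium at 24 h. At 48 h the levels were 272 and 286 CPM and 319.6 and 371 CPM. The ENPP1+ATP libraries were thus below Vehicle at 24 h and above it at 48 h, with changes of -0.41 (SE 0.0817, adjusted p = 0.000356) and 0.31 (SE 0.0818, adjusted p = 0.00446) and a difference between times of 0.72 (SE 0.116, adjusted p = 0.000104). Without the second 48 h ENPP1+ATP library, the 48 h rise was 0.20 (adjusted p = 0.0795). AMP medium gave -0.30 and 0.42, with a difference of 0.72 (SE 0.115, adjusted p = 9.52e-05), and its 24 h fall was -0.23 without the first AMP library (adjusted p = 0.0686) and -0.22 without the second Vehicle library (adjusted p = 0.0642). Ccnd3, cyclin D3, had the smallest change of the D cyclins with ENPP1+ATP medium, but not with AMP medium at 24 h (-0.31 against -0.30 for Ccnd2) or with ATP medium. It was 218 and 214 CPM in Vehicle and 178 and 186 CPM in ENPP1+ATP medium at 24 h, and 202 and 199 CPM and 172 and 170.4 CPM at 48 h, changes of -0.25 and -0.23 (adjusted p = 7.47e-05 and 0.000263). The AMP effect on Ccnd3 at 48 h, -0.15 (adjusted p = 0.0109), no longer passed without the first or the second AMP library or the first Vehicle library (-0.14, -0.14 and -0.13, with adjusted p of 0.0504, 0.0606 and 0.0899).

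Among the CIP/KIP genes, Cdkn1b and Cdkn1c went against Cdkn1a. Cdkn1b, which encodes p27 and is typically high in resting cells, was 153 and 149 CPM in Vehicle, 124 and 126 CPM in ATP, 87.0 and 82.0 CPM in ENPP1+ATP and 81.8 and 79.0 CPM in AMP medium at 24 h. At 48 h the same media gave 152 and 157 CPM, 124 and 128 CPM, 90.5 and 81.9 CPM and 94.3 and 83.1 CPM. ATP medium lay between Vehicle and the other media at both times, with no overlap. The ENPP1+ATP effect was -0.84 (SE 0.0607, adjusted p = 2.35e-11) at 24 h and -0.84 (SE 0.0609, adjusted p = 2.66e-11) at 48 h, and the AMP effect -0.91 and -0.80. Cdkn1c, which encodes p57 and is an imprinted gene, stood at 14.3 and 11.1 CPM in Vehicle, 6.36 and 5.73 CPM in ENPP1+ATP and 5.01 and 3.91 CPM in AMP medium at 24 h. Its changes were -1.08 (SE 0.169, adjusted p = 8.42e-06) for ENPP1+ATP and -1.54 (SE 0.171, adjusted p = 4.52e-08) for AMP medium. At 48 h it stood at 11.1 and 9.63 CPM in Vehicle, 6.20 and 7.90 CPM in ENPP1+ATP and 7.79 and 5.38 CPM in AMP medium, changes of -0.56 (adjusted p = 0.00910) and -0.66 (adjusted p = 0.00281). These 48 h calls rested on single libraries: without the first ENPP1+ATP or the first Vehicle library the ENPP1+ATP change was -0.39 and -0.45 (adjusted p = 0.139 and 0.101), and without the second AMP library the AMP change was -0.41 (adjusted p = 0.103). The AMP effect on Cdkn1c was weaker at 48 h by 0.88 (SE 0.241, adjusted p = 0.00646), and this difference was lost without the second 24 h AMP, the first 24 h Vehicle or the first 48 h AMP library (0.70, 0.68 and 0.60, adjusted p = 0.0511, 0.0586 and 0.0747). Of the Cdkn1c exon bases, 30.7% lie opposite exons of the antisense gene Gm44732, and reads over these shared bases may come from either gene.

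Cdkn2a, Cdkn2b and Cdkn2c, the INK4 genes among the members, were lower in ENPP1+ATP and AMP medium at both times. Cdkn2a, whose locus encodes both p16INK4a and p19ARF, was 193 and 193 CPM in Vehicle and 107 and 113 CPM in ENPP1+ATP medium at 24 h. At 48 h it was 196 and 197 CPM and 122 and 116 CPM. The groups stood well apart, with changes of -0.81 (SE 0.0609, adjusted p = 4.86e-11) and -0.72 (SE 0.0609, adjusted p = 4.40e-10). Counts per gene do not separate the 2 products. Cdkn2b, which encodes p15INK4b next to Cdkn2a on chromosome 4, was 97.7 and 102 CPM in Vehicle and 42.9 and 46.3 CPM in ENPP1+ATP medium at 24 h, and 100.5 and 95.8 CPM and 58.2 and 58.3 CPM at 48 h. Its fall was larger at 24 h (-1.16, SE 0.0847, adjusted p = 2.67e-10) than at 48 h (-0.75, SE 0.0838, adjusted p = 1.90e-07), with a difference of 0.41 (SE 0.119, adjusted p = 0.0123). That difference was 0.35 without the first 24 h ENPP1+ATP library and 0.37 without the second 48 h Vehicle library (adjusted p = 0.0709 and 0.0562), and 0.28 with scaling by library totals only (adjusted p = 0.0760). For AMP medium the Cdkn2b difference was 0.61 (SE 0.118, adjusted p = 0.000401). Cdkn2c, which encodes p18INK4c, was 128 and 117 CPM in Vehicle and 110.4 and 104 CPM in ENPP1+ATP medium at 24 h, and 127 and 129.9 CPM and 91.6 and 77.0 CPM at 48 h. Its change deepened from -0.20 (adjusted p = 0.0129) to -0.60 (adjusted p = 3.26e-08), a difference of -0.41 (SE 0.0914, adjusted p = 0.00128). The 24 h call was lost without the second ENPP1+ATP library (-0.15, adjusted p = 0.158), without the first Vehicle library (-0.13, adjusted p = 0.20) and with library totals only (-0.14, adjusted p = 0.101).

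**Figure D2:**
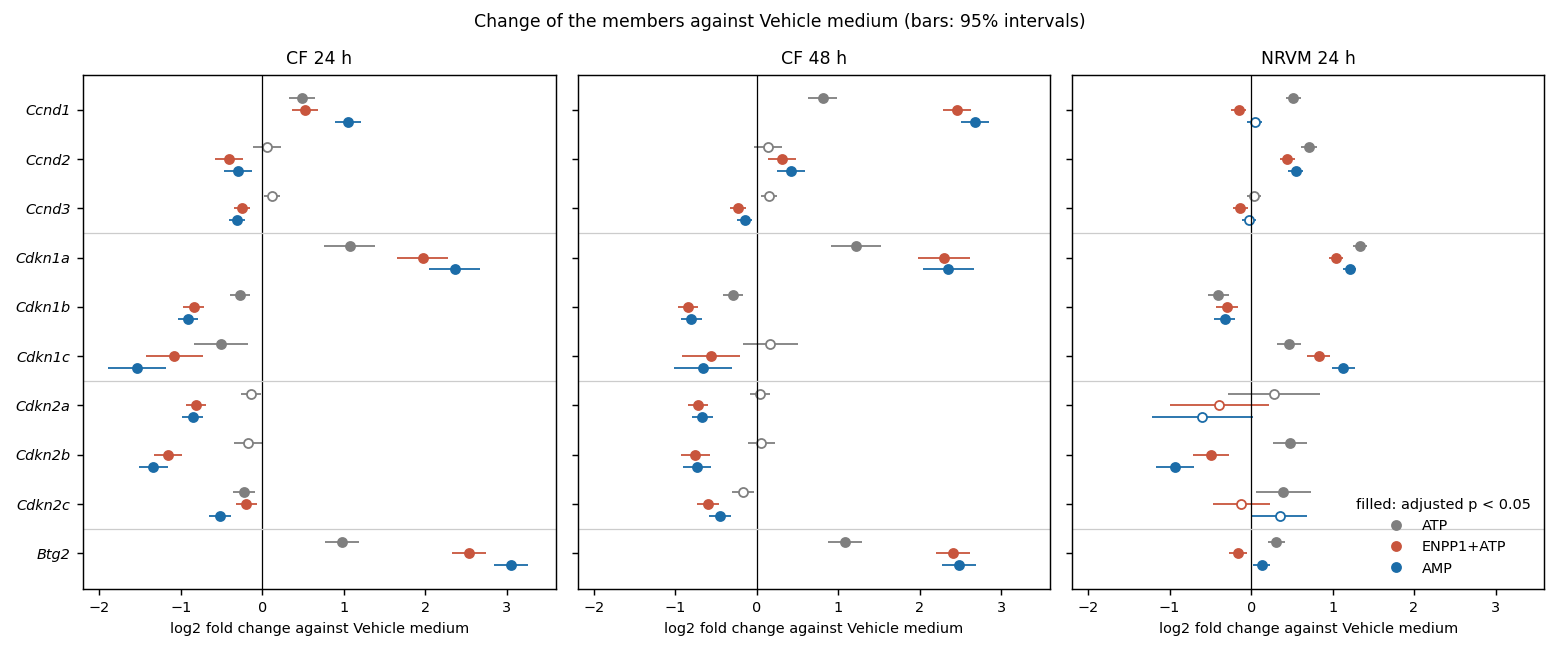
Log2 fold changes of the 10 members against Vehicle medium (horizontal axis) for ATP, ENPP1+ATP and AMP medium in CFs at 24 h, CFs at 48 h and NRVMs at 24 h, with 95% intervals as bars and filled points for an adjusted p under 0.05. Cdkn1a lies to the right of zero in all 3 panels, and Cdkn1c lies to the left in CFs at 24 h (-1.08 with ENPP1+ATP medium) and to the right in NRVMs (0.83).

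Medium from myocytes given ATP alone changed fewer members. At 24 h it raised Ccnd1 (0.49, SE 0.0780, adjusted p = 0.000122), Cdkn1a and Btg2 (0.98, SE 0.0989, adjusted p = 3.28e-06) and lowered Cdkn1b (-0.28, SE 0.0597, adjusted p = 0.00245), Cdkn1c (-0.51, SE 0.163, adjusted p = 0.0448) and Cdkn2c (-0.23, SE 0.0641, adjusted p = 0.0203), so 6 of 10 passed where 11.1% [4.77% higher, 6.32% lower] of all genes did. The calls of Cdkn1c and Cdkn2c were lost without the second ATP library (-0.34 and -0.18, adjusted p = 0.425 and 0.239) or the first Vehicle library (-0.30 and -0.16, adjusted p = 0.559 and 0.343). That of Cdkn1c was also lost with RLE factors or library totals only (-0.49 each, adjusted p = 0.0533 and 0.0534) and with deep libraries thinned (-0.48, adjusted p = 0.0574). At 48 h it raised Ccnd1 (0.81, SE 0.0836, adjusted p = 4.92e-07), Cdkn1a and Btg2 (1.09, SE 0.0989, adjusted p = 1.09e-06) and lowered Cdkn1b (-0.29, SE 0.0598, adjusted p = 0.00183), 4 of 10 beside 7.83% [5.35% higher, 2.48% lower]. Ccnd3 newly passed by DESeq2, with RLE factors and with a replicate block (0.15 each, adjusted p = 0.0156, 0.0365 and 0.0415). When only the groups compared were fitted, Ccnd3, Ccnd2 and Cdkn2c passed (0.15, 0.15 and -0.16, adjusted p = 0.00804, 0.0128 and 0.00748). Cdkn2c also passed with the replicate block (-0.17, adjusted p = 0.0489). Cdkn2a and Cdkn2b were at 0.04 and 0.06 against Vehicle at 48 h and did not pass the test (adjusted p = 0.871 and 0.835), with overlapping libraries. Between ENPP1+ATP and ATP medium, 2 members were higher and 6 lower at 24 h (beside 43.9% [21.8% higher, 22.1% lower] of all genes) and 3 higher and 6 lower at 48 h (beside 39.5% [18.2% higher, 21.3% lower]). Cdkn2b was lower in ENPP1+ATP than in ATP medium at 24 h, at -0.98 (SE 0.0854, adjusted p = 6.75e-09), and Cdkn2a at -0.68 (SE 0.0612, adjusted p = 2.41e-09). The lower Cdkn1c at 24 h (-0.57, adjusted p = 0.00930) no longer passed without the first ATP library (-0.40, adjusted p = 0.154) or the second ENPP1+ATP library (-0.50, adjusted p = 0.0853). ENPP1 medium without added ATP gave no call against Vehicle by edgeR or DESeq2 for any gene at either time, and none for a member without the filter on low counts, where 26 genes passed at 24 h and 180 at 48 h. When only the groups compared were fitted, 0 genes passed at 24 h and 1 at 48 h. At an unadjusted p under 0.05, 249 of 17879 genes passed by edgeR at 24 h and 743 at 48 h.

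Between ENPP1+ATP and AMP medium, 3 members passed the test at 24 h and none at 48 h. At 48 h none of the 10 members differed between them by edgeR, where 0.162% of all genes tested did [0.0895% higher, 0.0727% lower] and 2460 of 17879 genes had an unadjusted p under 0.05. The member with the largest gap at that time, Ccnd1, was higher in AMP medium by 0.22 (SE 0.0750, adjusted p = 0.175), without overlap of the libraries. At 24 h, 3 members passed beside 6.25% [2.6% higher, 3.65% lower] of all genes: Ccnd1 was higher in AMP medium by 0.53 (SE 0.0767, adjusted p = 0.000216), Btg2 by 0.52 (SE 0.0903, adjusted p = 0.00299), and Cdkn2c was lower at -0.33 (SE 0.0650, adjusted p = 0.00397). Without the first 24 h ENPP1+ATP library, Ccnd1 alone passed, Btg2 being at 0.46 (adjusted p = 0.0597) and Cdkn2c at -0.28 (adjusted p = 0.0702). Cdkn1a was higher in AMP medium by 0.39 (SE 0.137, adjusted p = 0.127) at 24 h, and it passed when only the libraries of these groups were fitted (adjusted p = 0.00211) or when genes with low counts were kept (adjusted p = 2.54e-11). With those genes kept its change was 0.38, so the adjusted p fell though the change hardly moved. That p-value is therefore not read as a measure of the spread between the libraries.

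From 24 h to 48 h, the members past the threshold in Vehicle and ENPP1 medium were Ccnd1 and Ccnd2, and more members passed in the other media. Within Vehicle medium, 0 members rose and 2 fell from 24 h to 48 h (4.88% [1.68% higher, 3.2% lower] of all genes), Ccnd1 as given above and Ccnd2 at -0.38 (SE 0.0815, adjusted p = 0.0106). Without the second 24 h, the first 48 h or the second 48 h Vehicle library the Ccnd2 change was -0.28, -0.34 and -0.41 (adjusted p = 0.182, 0.143 and 0.0621), so that only Ccnd1 passed. Cdkn1a was at 0.36 (adjusted p = 0.216) and passed without the filter on low counts (0.36, adjusted p = 9.79e-10). Here and in the media below, the change of Cdkn1a hardly moved without the filter. Its small adjusted p in that setting is not read as a measure of the spread between libraries. ENPP1 medium had the same pair of falls (7.95% [3.06% higher, 4.89% lower]), with Ccnd2 at -0.41 (SE 0.0819, adjusted p = 0.00503), lost without the second 24 h library (-0.36, adjusted p = 0.0802) or the first 48 h library (-0.35, adjusted p = 0.0821). Cdkn1a in ENPP1 medium, at 0.39 (adjusted p = 0.128), passed without the filter (0.40, adjusted p = 3.70e-12) and without the first 48 h library (0.60, adjusted p = 0.0169), and Ccnd3 passed without the second 48 h library (-0.19, adjusted p = 0.0485). In ENPP1+ATP medium 4 members rose and 1 fell (40.7% [19.5% higher, 21.2% lower]): Cdkn1a rose by 0.69 (SE 0.137, adjusted p = 0.00169), Cdkn2b by 0.39 (SE 0.0867, adjusted p = 0.00116) and Ccnd2 by 0.35 (SE 0.0820, adjusted p = 0.00229) beside Ccnd1, and Cdkn2c fell (-0.34, SE 0.0656, adjusted p = 0.000161). In AMP medium 5 rose and 1 fell (43.1% [22.3% higher, 20.8% lower]). These were Ccnd1 (0.63), Ccnd2 (0.35), Cdkn1c (0.58), Cdkn2a (0.22) and Cdkn2b (0.59), with Btg2 at -0.41. The rise of Cdkn1c was 0.40 without the second 24 h AMP library (adjusted p = 0.160), and without the first 48 h AMP library those of Cdkn1c and Cdkn2a were 0.30 and 0.10 (adjusted p = 0.262 and 0.219), and Cdkn2a was at 0.12 with library totals only (adjusted p = 0.111). Cdkn1a, at 0.35 in AMP medium (adjusted p = 0.0566), passed by DESeq2 (0.36, adjusted p = 0.0323), without the filter (0.37, adjusted p = 6.99e-12) and when only the groups compared were fitted (0.34, adjusted p = 6.74e-05). In ATP medium Cdkn1a (0.51) and Cdkn2a (0.20) rose and Ccnd1 and Ccnd2 (-0.29) fell (14.8% [8.34% higher, 6.44% lower]). Ccnd2 and Cdkn1a lost their calls without any 1 of the 4 ATP libraries, with adjusted p from 0.0560 to 0.198 for Ccnd2 and from 0.0590 to 0.223 for Cdkn1a. Cdkn2a lost its call without the second 24 h or the second 48 h library (0.15 and 0.16, adjusted p = 0.229 and 0.227). Btg2, at 0.27 (adjusted p = 0.0760), passed by DESeq2 (0.26, adjusted p = 0.0299), and Cdkn2b, at 0.21 (adjusted p = 0.0932), without the first 48 h library (0.33, adjusted p = 0.0252). Of the 10 members, 4 had an ENPP1+ATP effect that differed between times (30% [15.1% higher, 14.9% lower] of all genes) and 5 had such an AMP effect (31.7% [17.3% higher, 14.4% lower]).

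Levels of different genes were compared as CPM per kilobase of exon in CFs (mean ± SD, n = 2). The length is that of all annotated exons of a gene merged, such as 9.409 kb for Ccnd2, 8.775 kb for Ccnd3 and 1.172 kb for Cdkn2a. It can exceed the length of the transcripts made in CFs, which was not measured, so the order depends on this divisor. In 24 h Vehicle medium the order was Cdkn2a (165 ± 0.194), Cdkn2b (71.7 ± 2.01), Cdkn2c (45.6 ± 3.01), Ccnd2 (38.4 ± 3.44), Cdkn1a (34.5 ± 3.13), Cdkn1b (33.3 ± 0.633), Ccnd3 (24.6 ± 0.253), Btg2 (10.8 ± 0.940), Ccnd1 (10.4 ± 0.762) and Cdkn1c (6.22 ± 1.10). The neighbours Ccnd2, Cdkn1a and Cdkn1b lay within about their spread, as did Btg2 and Ccnd1. On this scale the INK4 members led among the members in these immortalized cells, and Ccnd2 was the highest D cyclin. In 24 h ENPP1+ATP medium Cdkn1a led with 135 ± 7.45, above Cdkn2a (93.6 ± 3.42) and Btg2 (61.8 ± 3.41). At 48 h in that medium Cdkn1a stood at 218 ± 16.8, Ccnd2 at 36.7 ± 3.90 and Ccnd1 at 28.6 ± 2.83, and Ccnd1 in 48 h Vehicle medium at 5.19 ± 0.292.

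The genes whose log2 CPM ran most like a member's over the 20 CF libraries, among 10881 genes, were Ccng1 (r = 0.996), Fam212b (0.996) and Psrc1 (0.995) for Cdkn1a, and Pmaip1 (0.996), Robo3 (0.994) and Ctc1 (0.993) for Btg2. For Ccnd1 they were Arhgdib (0.983), Csf1 (0.977) and Lrrfip1 (0.976), and for Ccnd2 Cdc42se1 (0.928), Rrp7a (0.918) and Arf3 (0.906). The 20 points share 5 media and 2 times, so these Pearson correlations describe a common pattern over the media and are given without a test.

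Other genes of the route were taken from fixed lists and are given by counts and by the median log2 fold change of the list, beside a median over all genes tested that lay within 0.03 of zero in CFs. Of all genes tested, 49.1% [23.9% higher, 25.3% lower] passed at 24 h and 45.2% [20.8% higher, 24.4% lower] at 48 h, and at 48 h the RB route (9 of 20 called) and the turnover list (5 of 11) lay near that share. Of 20 genes of the RB route (CDKs, RB family, E2F and DP factors and cyclins E and A), 14 were higher and 1 lower in ENPP1+ATP than in Vehicle medium at 24 h, with a median of 0.43. The inhibitory E2F factors E2f8 (1.36) and E2f7 (1.15) and the activator E2f2 (1.27) rose most, and Cdk6, a partner of the D cyclins, fell (-0.86). At 48 h 8 were higher and 1 lower, with a median of 0.11. Rb1 (0.81) and its relative Rbl2 (0.47) led at that time and Cdk2 was lower (-0.23). Of 12 genes of the proliferation list, 9 were higher and 1 lower at 24 h and 7 higher and 0 lower at 48 h. Mki67, a marker of cycling cells, rose by 1.97 and 0.75, and the helicase subunit Mcm6 fell by 0.18 at 24 h. Cdkn1a and Btg2 thus rose beside most genes of this list.

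Of 12 further p53 genes, 10 were higher and 1 lower at 24 h (median 1.25) and 11 higher and 1 lower at 48 h (median 1.60). Perp (3.45 and 4.41), the p53 antagonist Mdm2 (1.94 and 2.70) and Ccng1 (2.06 and 2.41) rose, and Sesn1 fell (-0.46 and -0.54). The study's own account of these CF libraries turns on p53 genes, so the list is not independent evidence of direction. Of 11 tested genes that also brake division, 6 were higher and 1 lower at 24 h and 5 higher and 4 lower at 48 h. Rprm, a p53 target that arrests cells in G2, rose by 2.78 and 2.64, and Gas1, named for growth arrest, fell (-2.80 and -1.75). Of 12 genes of the serum response, 11 were higher and 1 lower at 24 h (median 1.45), led by Fos (3.6), and 9 higher and 2 lower at 48 h (median 0.88), led by Fosl1 (2.80), an AP-1 subunit. Myc fell at both times (-0.85 and -0.53). Of 11 genes that turn over D cyclins or their inhibitors, 5 were higher and 2 lower at 24 h and 2 higher and 3 lower at 48 h. Usp2, a deubiquitinase known to stabilize cyclin D1, rose (1.20 and 1.58), and Gsk3b, the kinase that marks cyclin D1 for degradation, fell (-0.65 and -0.39). At 24 h Dtl (0.57) and Skp2 (0.33) rose too and Fbxw8 fell (-0.46). At 48 h Rnf123 rose (0.27) and Fbxo31 (-0.44) and Fbxw8 (-0.33) fell. Protein of cyclin D1 was not measured in these libraries.

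Fibroblast markers were lower with ENPP1+ATP and AMP medium at both times and with ATP medium mainly at 24 h. At 24 h their summed level was 8146 to 8504 CPM in Vehicle and 5964 to 6293 CPM in ATP medium. It was 4056 to 4124 CPM in ENPP1+ATP and 3181 to 3464 CPM in AMP medium. At 48 h the Vehicle and ATP levels were 8015 to 8406 CPM and 7736 to 7741 CPM. Those of ENPP1+ATP and AMP medium were 4323 to 4573 CPM and 4586 to 4879 CPM. All 12 markers of the list were counted and none was at 0 in all libraries, but collagen genes led the sum. Over the CF libraries Col1a1 had a median of 3296 CPM and Col3a1 of 1459 CPM. Lum, Mfap5 and Tcf21 reached at most 0.336, 0.186 and 4.16 CPM. Macrophage markers were a summed 18.3 to 21.1 CPM in Vehicle and 40.8 to 47.3 CPM in ENPP1+ATP medium at 24 h, and 19.3 to 21.4 CPM and 76.6 to 87.1 CPM at 48 h. Smooth muscle or pericyte markers were 127 to 129.8 CPM in Vehicle and 185 CPM in both ENPP1+ATP libraries at 24 h, and 139.6 to 144 CPM and 379 to 394 CPM at 48 h. Endothelial markers were 675 to 695 CPM and 662 to 673 CPM at 24 h, and 555 to 567 CPM and 861 to 874 CPM at 48 h, so all 3 lists were higher in ENPP1+ATP medium at 48 h. Their part in the results was not tested.

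**Figure D3:**
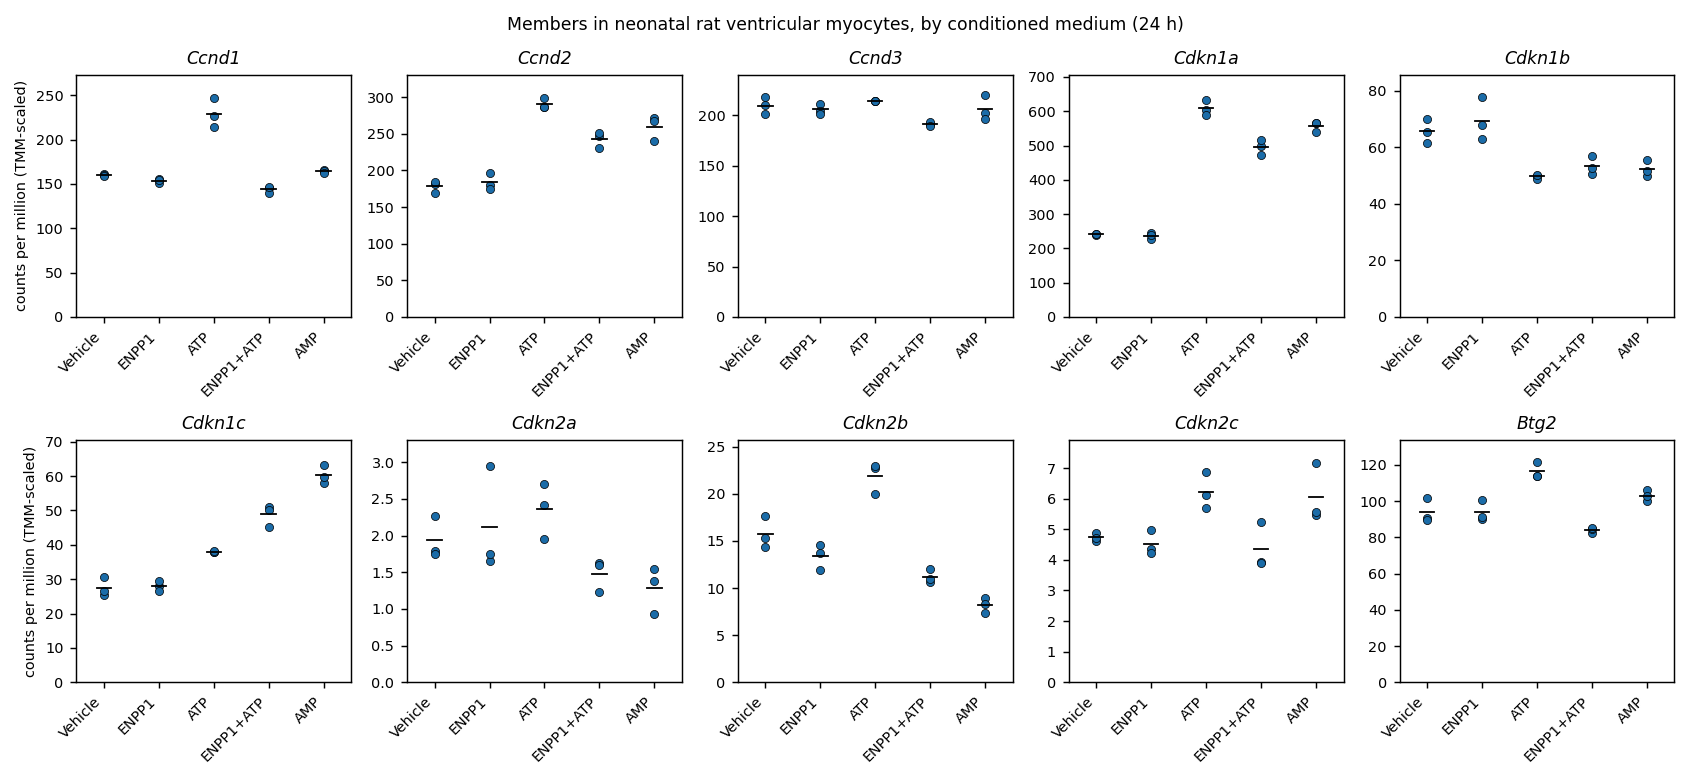
TMM-scaled CPM of the 10 members in the 15 NRVM libraries at 24 h, by medium, with a point for each library and a line at the mean of 3. Cdkn1a stands between 538 and 565 CPM in AMP medium and between 239 and 242 CPM in Vehicle medium.

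In NRVMs, Cdkn1a rose as in CFs, but several other members went the other way. ENPP1+ATP medium gave 3 members higher and 5 lower, where 56% [28.6% higher, 27.4% lower] of all genes passed. AMP medium gave 4 higher and 2 lower (beside 57.2% [29.2% higher, 28% lower]), ATP medium 7 higher and 1 lower (beside 59.9% [30.2% higher, 29.7% lower]), and ENPP1 medium no call by edgeR or DESeq2 for any gene, with 693 of 13461 genes at an unadjusted p under 0.05 (edgeR called 5 genes when only the groups compared were fitted and 14 without the filter on low counts, none of them a member). Here too the media share their Vehicle libraries. Cdkn1a was 239, 242 and 241 CPM in Vehicle and 498, 473 and 516 CPM in ENPP1+ATP medium. It was 565, 565 and 538 CPM in AMP and 604, 589.6 and 632 CPM in ATP medium. All libraries of these 3 media stood above all of Vehicle, with changes of 1.04 (SE 0.0412, adjusted p = 8.27e-25), 1.21 and 1.34. ATP medium exceeded ENPP1+ATP medium, the log2 fold change of ENPP1+ATP against ATP being -0.30 (SE 0.0400, adjusted p = 1.08e-07), whereas in CFs at 24 h ENPP1+ATP medium was the higher of the 2. Cdkn1c was 25.3, 30.6 and 26.5 CPM in Vehicle, 37.8, 37.8 and 38.1 CPM in ATP, 51.1, 50.3 and 45.3 CPM in ENPP1+ATP and 57.9, 63.2 and 59.7 CPM in AMP medium. The media stood in that order without overlap, and the changes were 0.46, 0.83 (SE 0.0700, adjusted p = 8.88e-14) and 1.13 (SE 0.0688, adjusted p = 2.73e-18).

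Of the D cyclins in NRVMs, Ccnd2 rose from 181, 169 and 184 CPM in Vehicle to 247, 231 and 251 CPM in ENPP1+ATP, 271, 268 and 241 CPM in AMP and 299, 287 and 287 CPM in ATP medium, changes of 0.45 (SE 0.0479, adjusted p = 1.82e-10), 0.55 and 0.71. Ccnd1 was higher in ATP medium, at 226, 215 and 247 CPM against 161, 161 and 159 CPM in Vehicle (0.52, SE 0.0439, adjusted p = 8.28e-14). In ENPP1+ATP medium it was 145, 139.9 and 147 CPM, below Vehicle at -0.15 (SE 0.0449, adjusted p = 0.00332), and in AMP medium 166, 165 and 163 CPM, which did not pass (0.04, adjusted p = 0.440). Ccnd3 was 201, 218 and 209.9 CPM in Vehicle and 192, 194 and 189 CPM in ENPP1+ATP medium (-0.13, SE 0.0432, adjusted p = 0.00888). Btg2, up by more than 2 on the log2 scale in CFs, was 90.7, 89.7 and 102 CPM in Vehicle and 82.2, 84.6 and 85.2 CPM in ENPP1+ATP medium here (-0.16, SE 0.0525, adjusted p = 0.00823). It was higher in ATP medium (114, 114 and 122 CPM, 0.31, SE 0.0511, adjusted p = 1.38e-06). With scaling by library totals only, the ENPP1+ATP changes of Ccnd1, Ccnd3 and Btg2 were -0.10, -0.07 and -0.10 and passed no more (adjusted p = 0.0579, 0.137 and 0.0906). Without the second Vehicle library Ccnd3 was at -0.10 (adjusted p = 0.0735), and without the third Btg2 was at -0.10 (adjusted p = 0.127). The Btg2 rise in AMP medium (0.13, adjusted p = 0.0257) came with overlapping libraries and was lost by DESeq2 (0.13, adjusted p = 0.0519) and without the second AMP library or the first or second Vehicle library (0.11, 0.10 and 0.10, adjusted p = 0.123, 0.145 and 0.137).

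Cdkn1b fell in NRVMs with all 3 nucleotide media, from 65.3, 70.1 and 61.4 CPM in Vehicle to 50.7, 52.6 and 56.8 CPM in ENPP1+ATP, 55.7, 49.9 and 51.5 CPM in AMP and 49.9, 48.9 and 50.2 CPM in ATP medium, changes of -0.30 (SE 0.0655, adjusted p = 0.000167), -0.33 and -0.40. The ranges did not overlap Vehicle in any of them. Cdkn2b was 14.4, 15.3 and 17.6 CPM in Vehicle, 10.6, 10.9 and 12 CPM in ENPP1+ATP, 8.95, 8.32 and 7.36 CPM in AMP and 22.7, 19.9 and 23.0 CPM in ATP medium. It was therefore lower with ENPP1+ATP (-0.49, SE 0.111, adjusted p = 0.000225) and AMP (-0.94, SE 0.116, adjusted p = 3.61e-09) and higher with ATP medium (0.47, SE 0.103, adjusted p = 0.000119), with no overlap with Vehicle. Cdkn2a rested on 14 to 42 counts in a library and passed no test against Vehicle (-0.39 with ENPP1+ATP medium, adjusted p = 0.273). Cdkn2c rested on 56 to 116 counts, and its 1 call against Vehicle, with ATP medium (0.40, SE 0.166, adjusted p = 0.0368), was lost by DESeq2 (0.39, adjusted p = 0.0697), without the filter on low counts (0.38, adjusted p = 0.0670) and without the second or the third ATP library or any of the 3 Vehicle libraries (0.32 to 0.42, adjusted p from 0.0588 to 0.148).

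Between ENPP1+ATP and ATP medium in NRVMs 1 member was higher and 7 were lower (beside 27.5% [14.1% higher, 13.5% lower] of all genes), and the libraries of the 2 media did not overlap for any of the 10, as for 41% of all genes tested. Cdkn2b (-0.96, SE 0.107, adjusted p = 9.70e-10), Ccnd1 (-0.67, SE 0.0440, adjusted p = 2.87e-16) and Btg2 (-0.47, SE 0.0513, adjusted p = 6.70e-10) were lower and Cdkn1c was higher (0.37, SE 0.0663, adjusted p = 2.62e-05) with ENPP1+ATP medium. Ccnd2, Ccnd3, Cdkn1a and Cdkn2c were lower too, Cdkn2c at -0.52 (adjusted p = 0.0162), a call lost without the second ATP, the first ENPP1+ATP or the second ENPP1+ATP library (-0.44, -0.45 and -0.44, adjusted p = 0.0913, 0.0790 and 0.0910). Between AMP and ENPP1+ATP medium 4 members were higher in AMP and 1 lower (beside 9.66% [5.81% higher, 3.85% lower]), Cdkn1c by 0.30 (SE 0.0639, adjusted p = 0.000861), Btg2 by 0.29, Ccnd1 by 0.20 and Cdkn1a by 0.17, with Cdkn2b at -0.45. Cdkn1a lost its call without the second ENPP1+ATP library (0.13, adjusted p = 0.0605) and with library totals only (0.11, adjusted p = 0.0502), and Cdkn2b without the third AMP or the third ENPP1+ATP library (-0.37 and -0.39, adjusted p = 0.0657 and 0.0645).

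In the lists of other cell cycle genes in NRVMs with ENPP1+ATP medium, genes passed in both directions, beside a median of 0.01 over all genes and 56% [28.6% higher, 27.4% lower] of all genes called, which the proliferation list, with 7 of 11 called, lay nearest to. Of 19 tested genes of the RB route, 9 were higher and 5 lower (median 0.11), with Ccne2, a cyclin of the G1/S transition (0.83), and Rb1 (0.70) among the rises and Cdk6 (-0.49) and Cdk4 (-0.42), the D cyclin kinases, among the falls. Of 11 proliferation genes 3 were higher and 4 lower (median -0.11), led by Pcna (0.49) and by the mitotic genes Ccnb1 (-0.82) and Plk1 (-0.71). Of 10 p53 genes 7 were higher and 1 lower (median 0.43), Mdm2 by 1.02 and Eda2r by 1.17. Of 10 further brakes 2 were higher and 5 lower, with Rprm (2.05) and Tob1 (0.90) up and Gas1 (-0.74) and Btg1 (-0.61) and Btg3 (-0.58), relatives of Btg2, down. Of 12 serum response genes 4 were higher and 7 lower, Myc falling by 1.79. Of 11 turnover genes 5 were higher and 3 lower. Fibroblast markers were a summed 8736 to 9198 CPM in ENPP1+ATP, 10920 to 12313 CPM in ATP and 12054 to 12881 CPM in AMP medium against 25548 to 26932 CPM in Vehicle, and cardiomyocyte markers 37726 to 39558 CPM, 24874 to 26833 CPM and 43741 to 46916 CPM against 44563 to 46894 CPM. In both lists 11 of the 12 markers were counted. The part of these shifts in the member values was not tested.

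In the injured hearts, Enpp1, the targeted gene, stood at 28.5 CPM in the fibroblast-like cells of the ENPP1CKO library against 127 CPM in those of the control, in the direction of the labels. For a cell class, CPM is taken from the summed counts of unique molecules (UMIs) of all its cells in a library. The 2 libraries held 7255 and 5240 cells after filtering, at median depths of 3367 and 3701 UMIs, and 68 cell barcodes occurred in both. Cells fell into 19 clusters, which were named from fixed marker lists and clustered without the members. Fibroblast-like cells were clusters 0 (1769 ENPP1CKO and 327 control cells, led by Cilp and Thbs4), 1 (848 and 327), 2 (931 and 1043, led by Col11a1) and 11 (113 and 86, led by interferon genes). As cluster 0 is the largest of the class in the ENPP1CKO library and cluster 2 in the control library, values within these clusters are given beside those of the class. With 1 library per genotype there is no test between genotypes, and the intervals in brackets (95%) cover counting error only and not the spread between animals.

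**Figure D4:**
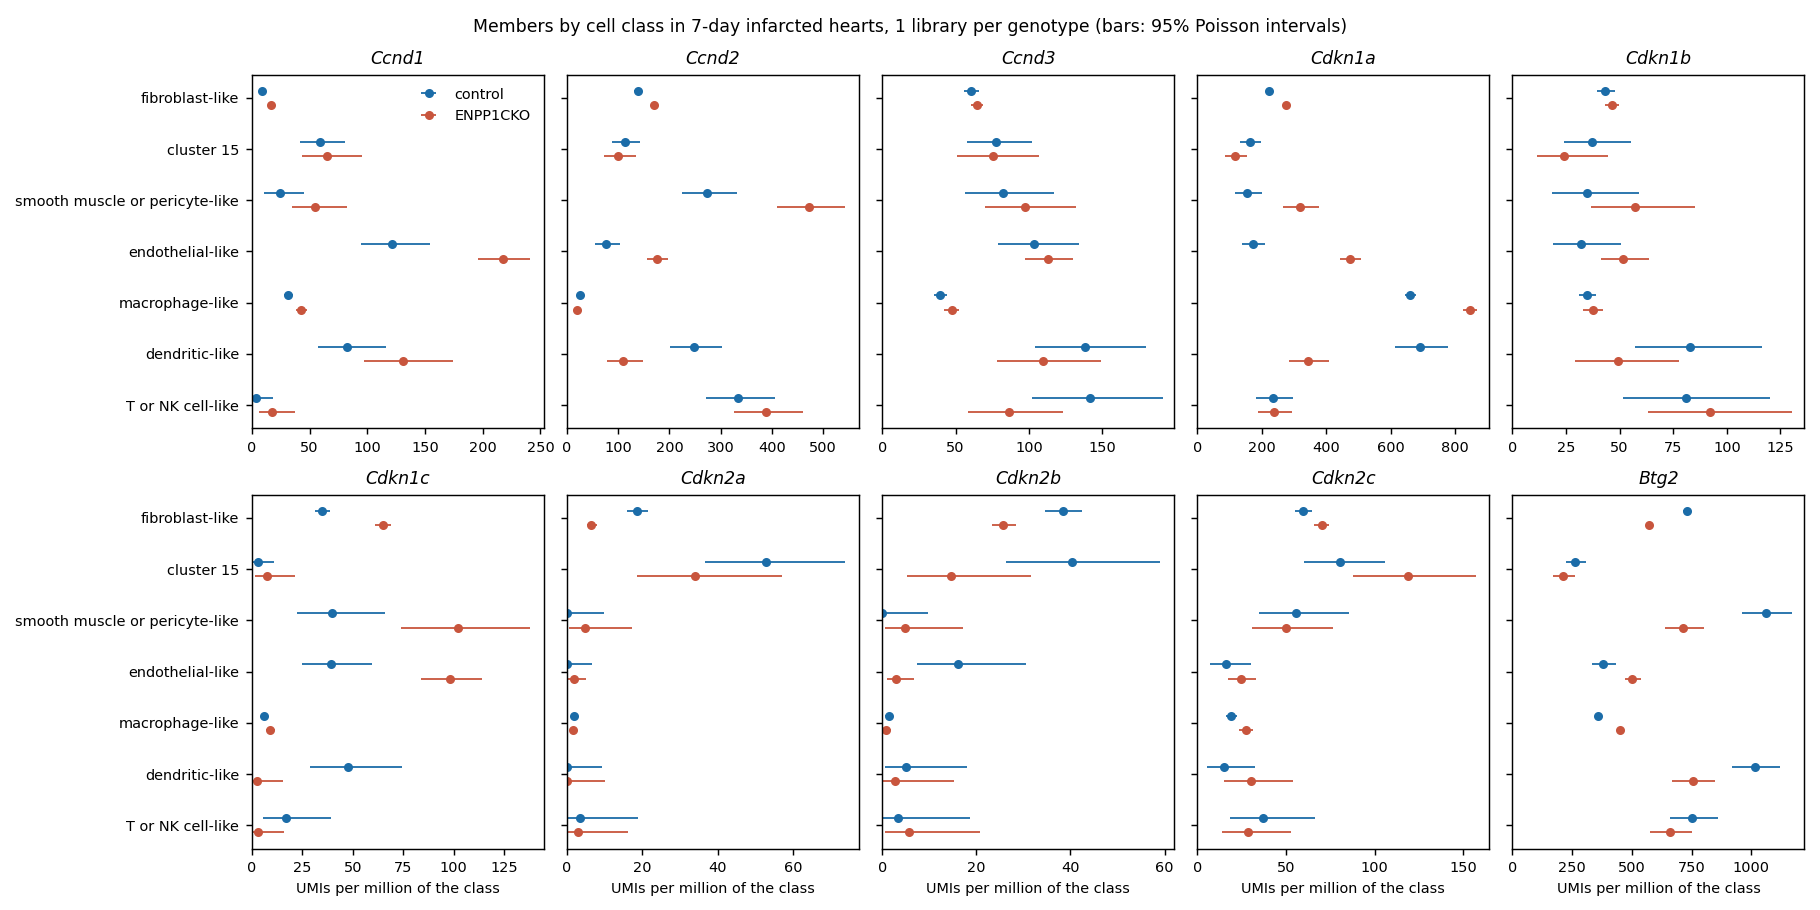
UMI-based CPM of each member by cell class in the ENPP1CKO and control libraries, with exact 95% Poisson intervals that cover counting error only. Cdkn1a is highest in macrophage-like cells among the 3 large classes (845 and 661 CPM), Ccnd1 in endothelial-like cells (218 and 121 CPM), and Cdkn2a and Cdkn2b in fibroblast-like cells.

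The D cyclins differed in level between classes. Ccnd1 was highest in endothelial-like cells, at 218 CPM (ENPP1CKO) against 121 CPM (control), with 43.0 and 31.7 CPM in macrophage-like and 16.8 and 8.92 CPM in fibroblast-like cells. Ccnd2 led in smooth muscle or pericyte-like (473 and 274 CPM) and T or NK cell-like cells (389 and 333 CPM) and was low in macrophage-like cells (20.2 and 24.5 CPM). T or NK cell-like cells had 6 and 1 UMIs of Ccnd1. Ccnd3 ran, in classes with over 20 UMIs of it in both libraries, from 39.7 CPM in control macrophage-like to 141 CPM in control T or NK cell-like cells. The highest Cdkn1a of the 3 large classes was in macrophage-like cells (845 and 661 CPM), against 274 and 223 CPM in fibroblast-like cells. Btg2 stood at 573 and 731 CPM in fibroblast-like and 451 and 357 CPM in macrophage-like cells. Cdkn1b stood at 46.3 and 43.4 CPM in fibroblast-like and 37.4 and 34.8 CPM in macrophage-like cells.

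Most UMIs of Cdkn2a and Cdkn2b came from fibroblast-like cells, with further ones from clusters 15 and 17 and from macrophage-like cells. The other named classes had at most 3 UMIs of Cdkn2a and 9 of Cdkn2b in a library (endothelial-like cells), too few to order their levels. Cluster 15 (60 ENPP1CKO and 77 control cells) was left unnamed: 11 fibroblast markers were detected there, but its leading genes were genes of division and the glial marker S100b, and none of them a fibroblast marker. Cluster 17, also unnamed (31 and 117 cells), had 2 and 18 UMIs of Cdkn2a and 5 and 21 of Cdkn2b, which is 160.0% and 84.5% of the fibroblast-like level for Cdkn2a and 100.2% and 47.4% for Cdkn2b. In cluster 15 Cdkn2a stood at 33.9 and 52.7 CPM and Cdkn2c at 119 and 80.6 CPM, while Cdkn1c had 3 and 2 UMIs. In the dividing macrophage-like cluster 6 (54 and 52 cells, led by Top2a), Cdkn2c stood at 156 and 100.3 CPM, against 27.3 and 19.2 CPM in all macrophage-like cells. Macrophage-like cells had 11 and 16 UMIs of Cdkn2a and 6 and 12 of Cdkn2b in total. Relative to fibroblast-like cells they held 3.24% and 3.56% of the Cdkn2b level and 23.7% and 9.85% of the Cdkn2a level, from few UMIs. For 3 collagen genes the shares were 1.71% and 1.91%. The part of free RNA in these UMIs was not tested. Dendritic-like cells had 0 UMIs of Cdkn2a in both libraries, which allows up to 8.20 and 7.52 CPM (3 counts each). Cdkn1c stood at 102 and 39.9 CPM in smooth muscle or pericyte-like and 98.1 and 39.3 CPM in endothelial-like cells, the highest named classes in the ENPP1CKO library, whereas in the control library dendritic-like cells were highest (2.73 and 47.6 CPM, from 1 and 19 UMIs).

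Within fibroblast-like cells, Cdkn2a, Cdkn2b and Btg2 were lower and Cdkn1c and Ccnd1 higher in the ENPP1CKO library. Cdkn2a was 6.46 CPM (ENPP1CKO) against 18.5 CPM (control), with a log2 ratio of -1.51 [-1.88, -1.16], and within clusters 0, 1 and 2 the ratio was -0.81, -2.61 and -1.09. In cluster 0 its interval reached 0.03 and in cluster 1 it rested on 3 and 8 UMIs. Cdkn2b was 25.8 and 38.3 CPM (-0.57 [-0.78, -0.37]), with -0.55, -0.59 and -0.79 in the clusters. Btg2 was 573 and 731 CPM (-0.35 [-0.40, -0.31]), with -0.45, -0.68 and -0.83. Cdkn1c was 65.0 and 34.9 CPM (0.90 [0.72, 1.08]), with 1.70, 0.51 and 1.06. These 4 genes kept their direction in each of the 3 largest clusters. Ccnd1 was 16.8 and 8.92 CPM (0.92 [0.56, 1.28]) and stood at 0.28, 1.02 and 0.22, the intervals of clusters 0 and 2 spanning zero. Its class ratio was 0.44 after thinning each cell to 1000 UMIs and 1.28 after thinning to 2000.

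**Figure D5:**
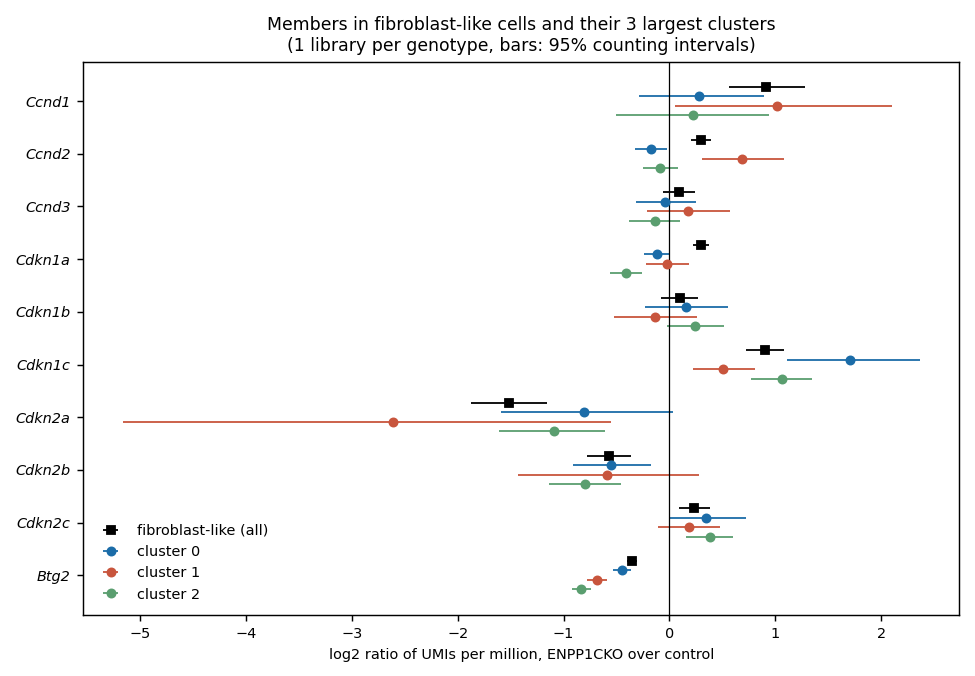
Log2 ratio of CPM, ENPP1CKO over control, of each member in all fibroblast-like cells and in their 3 largest clusters, with 95% counting intervals from 1 library per genotype. Cdkn1a lies at 0.30 for the class but at -0.12, -0.02 and -0.41 in the clusters.

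The higher Cdkn1a of the class was not seen within its 3 largest clusters. Over all fibroblast-like cells it was 274 CPM (ENPP1CKO) against 223 CPM (control) (0.30 [0.22, 0.37]), but 371 and 403 CPM in cluster 0 (-0.12 [-0.24, 0.00]), 203 and 206 CPM in cluster 1 (-0.02 [-0.22, 0.18]) and 132 and 175 CPM in cluster 2 (-0.41 [-0.56, -0.26]). Cluster 0, where Cdkn1a is high in both libraries, holds 1769 of the fibroblast-like ENPP1CKO cells and 327 of the control cells. The class ratio of Ccnd2, 0.30 [0.20, 0.39], likewise stood beside -0.17, 0.69 and -0.09 in the clusters. Ccnd3 and Cdkn1b had class intervals that span zero (0.09 [-0.06, 0.24] and 0.10 [-0.08, 0.27]), and Cdkn2c stood at 0.23 [0.09, 0.38]. Among the p53 genes, Mdm2 was at 27.5 and 24.3 CPM (0.18 [-0.05, 0.41]) and Ccng1 at 56.8 and 55.8 CPM (0.03 [-0.13, 0.18]) in fibroblast-like cells. Mki67 had 11 and 10 UMIs in the class and stood at 177 and 124 CPM in cluster 15.

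Fibroblast-like cells had a median of 4029 (ENPP1CKO) and 5068 (control) UMIs, so shares of cells were also taken after thinning each cell to 1000 UMIs, which left out cells below that and kept 3551 and 1739. Cells with a UMI of Cdkn2a were 2.40% and 6.90% before and 0.704% and 1.67% after thinning, in ENPP1CKO and control order. In macrophage-like cells, with median depths of 3275 and 3245 UMIs, the thinned shares were 0.199% and 0.253%. For Cdkn2b the shares in fibroblast-like cells were 9.23% and 15.3% before and 2.31% and 3.39% after thinning, against 0.149% and 0.211% in macrophage-like cells. For Cdkn1c they were 18.2% and 13.3% and 6.31% and 3.91%, against 0.646% and 0.716%. The order of the libraries was the same before and after thinning for these 3 genes. Cdkn1a-positive cells were 32.7% and 34.4% before and 15.8% and 15.1% after thinning, in opposite orders, and no order is read from them.

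Macrophage-like cells (clusters 6, 7, 8, 9 and 12) had Cdkn1a at 845 and 661 CPM (0.36 [0.30, 0.41]) and Btg2 at 451 and 357 CPM (0.34 [0.27, 0.41]). Cluster 9, led by Ccl24, held 52 ENPP1CKO and 821 control cells. Without it, a setting chosen after seeing the data, the class ratio was 0.31 for Cdkn1a, 0.19 for Btg2 and 0.24 for Ccnd2, against -0.28 for Ccnd2 with it. Within cluster 7 (1021 and 675 cells) the ratios were 0.24 [0.16, 0.31] for Cdkn1a and -0.08 [-0.18, 0.02] for Btg2, and within cluster 8 (927 and 922 cells) 0.24 [0.15, 0.33] and 0.36 [0.25, 0.48]. Endothelial-like cells (clusters 3 and 4) had higher Cdkn1a (474 and 171 CPM, 1.47 [1.16, 1.79]), Cdkn1c (98.1 and 39.3 CPM, 1.32 [0.67, 2.03]), Ccnd2 (176 and 76.8 CPM, 1.20 [0.73, 1.69]) and Ccnd1 (0.84 [0.47, 1.24]) in the ENPP1CKO library. Their Cdkn2b rested on 5 and 9 UMIs. Cluster 3 held 867 ENPP1CKO and 162 control cells, and cluster 4, led by Ccl21a, held 65 and 30. The median depth of the 932 and 192 endothelial-like cells was 1472.5 and 2602.5 UMIs. The part of depth and of the mix of clusters in these ratios was not tested.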

How the data were processed

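RNA was measured in 37 samples, of which 35 were bulk libraries of CFs (20) and NRVMs (15) and 2 were single-cell libraries. For each culture library the authors deposited a table of read counts by gene, and for single cells the deposited counts are of unique molecules (UMIs) by gene and barcode. All are whole numbers with no normalization. The submitters' processing notes name STAR 2.5.3a, Cell Ranger, mm10 and rn6. The counter and whether it used strand are not given in the sources used here. The NRVM samples carry mouse in the organism label, although the strain and the genes in their table are of rat. Value columns that could not be mapped to a sample numbered 0. Each of the 10 members was named in every comparison, with up to 3 genes of largest rise and fall past the threshold per pathway list and the 3 genes most like Cdkn1a, Ccnd1, Ccnd2 and Btg2. The members and lists were chosen with earlier results of these data known.

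The counts of a culture were tested with edgeR 4.0.16 and limma 3.58.1 in R 4.3.3: low counts were filtered by filterByExpr, libraries were scaled by TMM, and quasi-likelihood fits took 1 mean for each combination of medium and time over all libraries of the culture and were tested on simulated data. Two-sided p-values were adjusted by the Benjamini-Hochberg method with a threshold of 0.05 in each of 25 comparisons. The alternatives were DESeq2 1.42.0, RLE factors, library totals only, no filter on low counts, a replicate block, only the groups compared, and leaving out each library. Thinning of deep libraries to the median total and leaving out macrophage-like cluster 9 were added after seeing the data. Total counts ran from 13481389 to 115824659 in a bulk library.

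Barcodes of the single-cell libraries were kept if 200 or more genes were detected and no more than 20% of counts were mitochondrial, after Scrublet marked 151 (2.02%) and 69 (1.29%) of 7460 and 5347 barcodes as doublets, which were left out. Cells were clustered with scanpy 1.11.5 and igraph 0.11.9 in Python 3.11.15 on 2000 variable genes without the members, 30 components, 15 neighbours and a Leiden resolution of 0.5. A cluster was named from fixed markers. Names were rebuilt here, so classes may differ from those of the study. Cluster 17, led by Serpinb2 and Upk3b (31 ENPP1CKO and 117 control cells), was left unnamed after its leading genes were seen. Intervals (95%) and the limit that 0 UMIs allows (3 counts) cover counting error only.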

Additional observations from a re-analysis of the deposited data

Results flagged for a closer look

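The effect of a medium on CFs differed between 24 h and 48 h, by the edgeR interaction test with Benjamini-Hochberg adjustment, for 4 members with ENPP1+ATP medium and 5 with AMP medium, beside 30% and 31.7% of all genes tested. As the 48 h effect minus the 24 h effect on the log2 scale, these were Ccnd1 (1.93), Ccnd2 (0.72), Cdkn2b (0.41) and Cdkn2c (-0.41) with ENPP1+ATP medium. With AMP medium they were Ccnd1 (1.63), Ccnd2 (0.72), Cdkn1c (0.88), Cdkn2b (0.61) and Btg2 (-0.57). Both sets share the Vehicle libraries.

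At 24 h some members had every library of a medium on one side of Vehicle in CFs and on the other side in NRVMs. Libraries that do not overlap Vehicle were common: with ENPP1+ATP, AMP and ATP medium they were found for 76.2%, 74.8% and 54.2% of all genes tested in CFs and for 62.3%, 61.9% and 65% in NRVMs. How many of all genes lay on opposite sides in the 2 cultures was not counted, so nothing particular to the members is read from this. With ENPP1+ATP medium the log2 fold changes in CFs and NRVMs were 0.53 and -0.15 for Ccnd1, -0.41 and 0.45 for Ccnd2, -1.08 and 0.83 for Cdkn1c and 2.53 and -0.16 for Btg2. With AMP medium they were -0.30 and 0.55 for Ccnd2, -1.54 and 1.13 for Cdkn1c and -0.52 and 0.35 for Cdkn2c. With ATP medium they were -0.51 and 0.46 for Cdkn1c, -0.18 and 0.47 for Cdkn2b and -0.23 and 0.40 for Cdkn2c. Of these, Cdkn2c in NRVMs with AMP medium and Cdkn2b in CFs with ATP medium did not pass the edgeR test (adjusted p = 0.0716 and 0.209). Other calls were lost under alternatives given above. They are Ccnd1 and Btg2 in NRVMs with ENPP1+ATP medium and Ccnd2 in CFs with AMP medium. With ATP medium they are Cdkn1c and Cdkn2c in CFs and Cdkn2c in NRVMs. The difference between the cultures was not tested, since they are of different species and were counted in separate tables.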

How the results depend on the processing

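Of 2890 values of the members under alternatives in the cultures, 2771 kept their call, 73 no longer passed, 46 newly passed and 0 calls were reversed. These counts concern calls and not the sign of values that did not pass. Of those lost, 58 came from leaving out 1 library. Over leaving out each library, members past the threshold in CFs at 24 h numbered 9 to 10 for ENPP1+ATP and for AMP against Vehicle, 4 to 6 for ATP, 0 to 0 for ENPP1, 7 to 8 for ENPP1+ATP against ATP and 1 to 3 for AMP against ENPP1+ATP. At 48 h they numbered 9 to 10, 8 to 10, 4 to 4, 0 to 0, 9 to 10 and 0 to 0 in the same order. From 24 h to 48 h they numbered 1 to 2 in Vehicle, 1 to 3 in ENPP1, 1 to 3 in ATP, 5 to 5 in ENPP1+ATP and 4 to 7 in AMP medium, and for the difference of effects 3 to 4 with ENPP1+ATP and 4 to 6 with AMP medium. In NRVMs they numbered 7 to 8, 5 to 6, 7 to 8, 0 to 0, 7 to 8 and 4 to 6. The count for AMP against ENPP1+ATP in CFs at 24 h was 5 instead of 3 with no filter on low counts, and that for ENPP1+ATP against Vehicle in NRVMs was 5 instead of 8 with library totals only. The cause was not tested.

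Replicate numbers did not pair the samples: deviations of same-numbered libraries correlated at -0.106 to 0.132 over 20 pairs of CF groups, where with 2 libraries a group both numbers give the same value, and -0.166 to 0.124 over 10 pairs of NRVM groups with 3 numbers each. With the replicate block, 244 of 250 member values kept their call, 5 newly passed, among them Cdkn1a in AMP medium from 24 h to 48 h (0.40, adjusted p = 0.0296), and 1 was lost, Cdkn2a in ATP medium from 24 h to 48 h (0.17, adjusted p = 0.0663).

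Over all genes, calls for AMP against ENPP1+ATP in CFs at 48 h numbered 29, 158 by DESeq2 and 322 without the filter, and at 24 h 1118, or 382 when only the groups compared were fitted. That setting gave 2590 instead of 1400 for ATP against Vehicle at 48 h and 2485 instead of 873 for time in Vehicle medium. With library totals only, the median of all genes for ATP against Vehicle in NRVMs moved from 0.01 to 0.11.

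In fibroblast-like cells, the log2 ratio after thinning to 1000 counts per cell was 0.44 for Ccnd1, 0.43 for Ccnd2, 0.037 for Cdkn1a and -0.42 for Btg2. After thinning to 2000 counts it was 0.15 for Cdkn1a, -0.13 for Cdkn1b, 0.72 for Cdkn1c and -0.44 for Btg2. Cdkn1c in macrophage-like cells turned from 0.61 to -0.23 after thinning to 1000. These ratios moved with depth, and each rests on 1 library per genotype.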
